A study of Mus musculus with 12 samples.

Results

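The genes described here encode 10 enzymes of serine synthesis, folate-dependent one-carbon metabolism and asparagine synthesis in EO771-tdT-LM2 cells, a mouse breast cancer line. They were chosen by symbol, as the rows of a raw count table whose Ensembl IDs map to Phgdh, Psat1, Psph, Shmt1, Shmt2, Mthfd1, Mthfd2, Mthfd1l, Aldh1l2 and Asns. All 10 were found among 55414 gene IDs, and all 10 were among the 11332 genes with enough counts to be tested.

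Cells make serine from the glycolytic intermediate 3-phosphoglycerate in a chain of reactions carried out by Phgdh, which oxidises it, Psat1, which adds the amino group, and Psph, which removes the phosphate. Serine hydroxymethyltransferase then passes a carbon unit from serine to tetrahydrofolate, in the cytosol through Shmt1 and in mitochondria through Shmt2. Mthfd2 and Mthfd1l carry that unit on to formate inside mitochondria, Aldh1l2 oxidises it to carbon dioxide there, and the trifunctional Mthfd1 handles it in the cytosol, where it feeds the synthesis of purines and thymidylate. Asns makes asparagine from aspartate and glutamine. Many of these genes are known targets of Atf4, the transcription factor of the integrated stress response, and Phgdh is amplified or highly expressed in some breast cancers.

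The start of Asns is shown first because it holds the letters of the amino acid response element for which this gene is known, a type of site bound by Atf4 with C/EBP partners. Windows of 250 bases before the start of transcription were taken from RefSeq's GRCm38.p6 table, which held 10 windows for 9 of the enzymes, with 2 for Psat1; Aldh1l2 is not analysed here. The motif TGATGNAA, searched on both strands, is in capitals, and the sequence is written 5′ to 3′ on the gene's strand (chr6:7693215-7693242, minus strand), with the motif beginning 23 bases before the RefSeq start.
Asns: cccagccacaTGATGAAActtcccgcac
It was the only match among the 10 windows, against 3.45% of the 32851 windows in the table. The motif CACGTG, the E-box that Myc and its partners bind, was found in none of the 10 and in 6.02% of all windows.

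The CCAAT box, the motif of the factor NF-Y, and the Sp1-type box GGGCGG were each present in 6 of the 10 windows, against 33.8% and 32.7% of all windows. For CCAAT, 1 copy per gene is shown because all 3 serine synthesis genes carry it. Below, CCAAT or its reverse complement ATTGG is in capitals, and each sequence is written on its gene's strand.
Phgdh: gcatttctgaCCAATcaaaaggaga
Psat1: gtgagcgtggCCAATagggagggga
Psph: ccgcccgctgATTGGcttaatccaa
Shmt1: gctcccactgATTGGgccgctgtag
Mthfd1: actatctctgATTGGctaaaagcga
Mthfd2: actccttcagCCAATcaggacctgc
In GRCm38 these lie at chr3:98339978-98340002 for Phgdh, chr19:15925081-15925105 for Psat1 and chr5:129787287-129787311 for Psph, all on the minus strand. The others lie at chr11:60811298-60811322 on the minus strand for Shmt1, chr12:76255153-76255177 on the plus strand for Mthfd1 and chr6:83317686-83317710 on the minus strand for Mthfd2. The window of Shmt2 held none of the 4 motifs. The windows follow RefSeq starts. By the GENCODE M21 annotation the stretches of Asns, Psat1, Psph, Shmt1 and Mthfd2 shown here lie within the gene. That of Phgdh spans the gene's start, and only that of Mthfd1 lies before it. These matches describe the letters in the windows and were not tested for binding or effect.

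RNA was sequenced from 12 cultures, 3 in each of 4 groups, all of the same line and labelled wild type. The cells were kept in medium with little glucose (10 mg/dl) and 1% serum for 30 minutes before they were seeded in 12-well plates, and were then treated for 24 hours in that medium. The control group received 0.1% BSA and 2.5 µg/mL IgG, and the GDNF group received the neurotrophic factor GDNF at 0.2 µg/mL with the same IgG. The anti-NCAM1 group received 0.1% BSA and 2.5 µg/mL of an antibody to NCAM1, an adhesion molecule that can serve as a GDNF receptor, and the last group received both GDNF and that antibody at these doses. The labels list BSA only for the groups without GDNF. An effect of GDNF and one of BSA therefore cannot be told apart in comparisons of cultures with and without GDNF. All 4 groups were glucose-deprived, so the comparisons do not show the effect of glucose deprivation on these enzymes. Per the labels each condition was run in triplicate, and whether the 3 cultures came from separate experiments is not given, so p-values measure only the spread between these cultures, which may be technical.

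Libraries held 5616398 to 8093754 counts. GDNF replicate 3 stood apart: transcripts of the mitochondrial genome made up 10.2% of its counts against 4.11 to 5.29% elsewhere. For each library, the deviations of the tested genes from their means over all libraries were fitted on mRNA GC content and length. The GC slope, thus relative to the average of these libraries, fell most steeply in 2 libraries of the GDNF group. It was -0.142 log2 units per 10 points of GC for replicate 2 and -0.301 for replicate 3. Replicates 1 and 3 of the anti-NCAM1 group had slopes of -0.0755 and -0.0796, and the remaining 8 libraries had slopes of 0.0444 to 0.108. Of the epithelial markers, Krt8 (3123 to 4523 counts per library), Epcam (69 to 143) and Erbb3 (25 to 53) were present, whereas Krt19 and Krt7 had 0 counts, Krt18 0 to 1 and Cdh1 0 to 4. Of 4 leukocyte markers, Cd68 had 38 to 53 counts per library, Ptprc and Cd3e 0 to 1 and Adgre1 0. Fibroblast markers summed to 615.6 to 633.7 CPM in control, 500.2 to 572.9 in GDNF, 546.6 to 602.4 in anti-NCAM1 and 565.7 to 586.5 with both, over 6 genes, of which Pdgfra, Pdgfrb and Col1a1 were expressed, Col1a2 and Dcn had 0 to 1 counts and Lum had 0. Their part in the results below was not tested.

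In control cells the first step of serine synthesis had the highest level per length, and the mitochondrial route exceeded the cytosolic one at the serine step. Counts were scaled to normalised CPM, their share of the library on a fixed scale, and divided by the length of the longest protein-coding mRNA. Phgdh was at 215.78 ± 9.45 CPM per kb (SD, n = 3), Asns at 148.32 ± 4.30, Shmt2 at 138.12 ± 8.55 and Psat1 at 134.13 ± 4.80. The control ranges of Asns and Shmt2 overlapped, as did those of Shmt2 and Psat1, so these neighbours were not separated by their spread, while Asns lay wholly above Psat1.

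Below them came Mthfd2 at 64.41 ± 1.65 CPM per kb, Mthfd1 at 45.06 ± 0.516, Mthfd1l at 35.74 ± 0.711 and Psph at 32.9 ± 1.93 (SD, n = 3). Aldh1l2 at 25.05 ± 0.929 and Shmt1 at 22.8 ± 0.989 CPM per kb were lowest. No neighbouring pair from Psat1 downwards overlapped in the control libraries. The order of the lower genes rested on the length used: with the median length of the protein-coding transcripts, a choice added after seeing the data, Psph was at 71.1 and Shmt1 at 49.2 CPM per kb, above Mthfd1 at 48.0, Mthfd1l at 35.9 and Aldh1l2 at 30.3. Phgdh and Asns were first and second with either length.

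**Figure D1:**
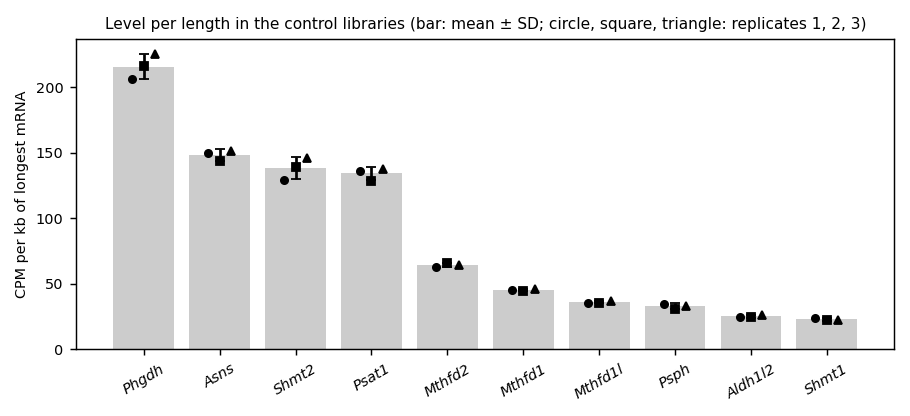
Level per length of the 10 enzyme mRNAs in the 3 control libraries, in CPM per kb of the longest mRNA; bars are means, error bars SD and points the libraries. Phgdh stands highest at 215.78 CPM per kb and Shmt1 lowest at 22.8, and the bars of Asns, Shmt2 and Psat1 are close together.

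Of the compartment partners compared as ratios (Shmt2 to Shmt1, Mthfd2 to Mthfd1, Mthfd1l to Mthfd1), those of the serine step differed most. Per length, Shmt2 was 6.08 ± 0.579 times Shmt1 in control (SD, n = 3), or 2.85 ± 0.271 times with the median transcript length. In control, with the longest mRNA, Mthfd2 was 1.43 ± 0.0465 times and Mthfd1l 0.793 ± 0.0111 times Mthfd1 (SD, n = 3). With the median transcript length, Mthfd2 was at 106.2 and Mthfd1 at 48.0 CPM per kb in control. Their gap thus widened while that of Shmt2 and Shmt1 narrowed, so the contrast between the steps depends on the length used. With the longest mRNA, across the 12 libraries the ratio of Shmt2 to Shmt1 ran from 4.89 in GDNF replicate 3 to 7.28 in GDNF replicate 1. Both extremes were thus libraries of the GDNF group. Aldh1l1, the cytosolic counterpart of Aldh1l2, had 1 to 6 counts per library and was not tested. Mthfd2l, the close relative of Mthfd2, averaged 5.75 CPM per kb over the 12 libraries, far below Mthfd2. Gldc, the decarboxylase of the mitochondrial glycine cleavage system, had 0 to 3 counts per library, at or under the 3 counts that a count of 0 allows.

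Genes up- and downstream of the folate carbons were measured as well. Gart and Atic, the purine synthesis enzymes that take up formyl groups, averaged 63.6 and 85.2 CPM per kb over the 12 libraries. Per length of the longest mRNA, Atf4 itself averaged 309.3 CPM per kb, above every one of the 10 enzymes, and Myc 235. With the median transcript length Phgdh was at 349.3 and Asns at 329.3 CPM per kb in control. No such value is given here for Atf4, so its rank holds only for the longest mRNA. Of the enzymes that turn homocysteine into cysteine, Cth had 0 to 1 counts and Cbs 0 to 7 per library.

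Within serine synthesis, Psat1 was the steadiest of the 10 genes across the 12 libraries, and Phgdh the most variable through 1 library, GDNF replicate 3. Psat1 was at 355.3, 336.9 and 360.9 CPM in control replicates 1 to 3, at 355.8, 360.0 and 347.4 with GDNF, at 334.2, 359.7 and 361.5 with anti-NCAM1, and at 352.6, 351.9 and 352.7 with both. All 4 groups overlapped, and the whole range over 12 libraries was 1.08-fold. Its coefficient of variation (CV, SD over mean across the 12 libraries) was 2.54%, where counting error alone gives 2.05%. Of the 3847 tested genes in the same range of CPM as the enzymes, 0.104% had a lower CV, and their median CV was 8.02%.

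Phgdh was at 390.2, 409.3 and 425.9 CPM in control, 433.4, 373.5 and 251.2 with GDNF, 369.7, 424.1 and 413.9 with anti-NCAM1, and 399.3, 411.7 and 432.7 with both. GDNF replicate 1 was the highest of all 12 libraries and GDNF replicate 3 the lowest, so that the GDNF group covered the range of every other group. Its CV was 12.6%, above that of 84.5% of genes in the same CPM range, and 5.45% without GDNF replicate 3, where Shmt2 (9.65%), Psph (8.87%) and Shmt1 (7.23%) varied more. That omission was chosen after seeing the data. Per length, Phgdh was 1.61 ± 0.0831 times Psat1 in control (SD, n = 3) and level with it, at 1.00, in GDNF replicate 3.

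Psph was at 60.2, 53.6 and 57.5 CPM in control, 55.0, 50.1 and 42.0 with GDNF, 43.6, 56.7 and 53.1 with anti-NCAM1, and 54.4, 61.2 and 54.5 with both. The lowest libraries were GDNF replicate 3 and anti-NCAM1 replicate 1, and all 4 groups overlapped. Psph shares 452 exonic bases with Cct6a on the opposite strand in the GENCODE annotation of GRCm38. Cct6a had 55054 counts over the 12 libraries against 4383 for Psph, and the sources used here do not say whether strand was counted, so Psph values are uncertain.

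In the cytosolic arm, Shmt1 was at 68.2, 62.7 and 64.5 CPM in control, 54.3, 62.6 and 57.3 with GDNF, 63.1, 63.8 and 52.9 with anti-NCAM1, and 59.2, 63.0 and 60.8 with both. Every GDNF library lay below every control library, though only narrowly, while the other groups overlapped with both. Shmt1 shares 184 exonic bases with Smcr8 on the other strand, which had 6818 counts against its own 5018.

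Mthfd1 was at 146.1, 144.4 and 147.7 CPM in control, 149.8, 135.7 and 125.0 with GDNF, 138.4, 147.7 and 150.4 with anti-NCAM1, and 151.0, 141.1 and 145.1 with both. GDNF replicate 3 was the lowest library, and all 4 groups overlapped.

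In the mitochondrial arm, Shmt2 varied most. It was at 295.8, 317.9 and 334.8 CPM in control, 316.5, 249.7 and 224.5 with GDNF, 265.4, 322.8 and 264.5 with anti-NCAM1, and 319.7, 309.9 and 327.6 with both. The levels fell into a low set of 4 libraries, GDNF replicates 2 and 3 and anti-NCAM1 replicates 1 and 3, at 224.5 to 265.4 CPM, and a high set of 8 at 295.8 to 334.8 CPM. GDNF replicate 1 lay with the controls.

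Mthfd2 was at 130.7, 137.6 and 134.6 CPM in control, 150.6, 138.0 and 131.4 with GDNF, 144.6, 136.4 and 132.5 with anti-NCAM1, and 138.0, 138.0 and 141.5 with both. The control and both groups did not overlap, by a narrow gap, and the CV over 12 libraries was 4.12%. Mthfd1l ran from 122.0 CPM in GDNF replicate 3 to 144.2 in replicate 3 of both, with a CV of 4.93%. Its control libraries, at 129.7, 130.9 and 134.7 CPM, lay within the range of the group given both.

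Aldh1l2 was at 148.1, 147.4 and 157.4 CPM in control, 143.8, 157.5 and 182.0 with GDNF, 151.9, 148.4 and 142.7 with anti-NCAM1, and 159.4, 156.2 and 142.0 with both. GDNF replicate 3, the lowest library for Phgdh and Shmt2, was the highest for Aldh1l2. Aldh1l2 shares 1056 exonic bases with D10Wsu102e on the other strand, which had 7728 counts against 12622, so its values are also uncertain.

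Asns was at 302.7, 289.1 and 305.3 CPM in control, 325.0, 311.6 and 320.8 with GDNF, 300.7, 303.7 and 331.3 with anti-NCAM1, and 302.3, 288.9 and 309.5 with both. The 3 GDNF libraries lay above all 3 control libraries and above all 3 libraries given both. Its CV was 4.24%.

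**Figure D2:**
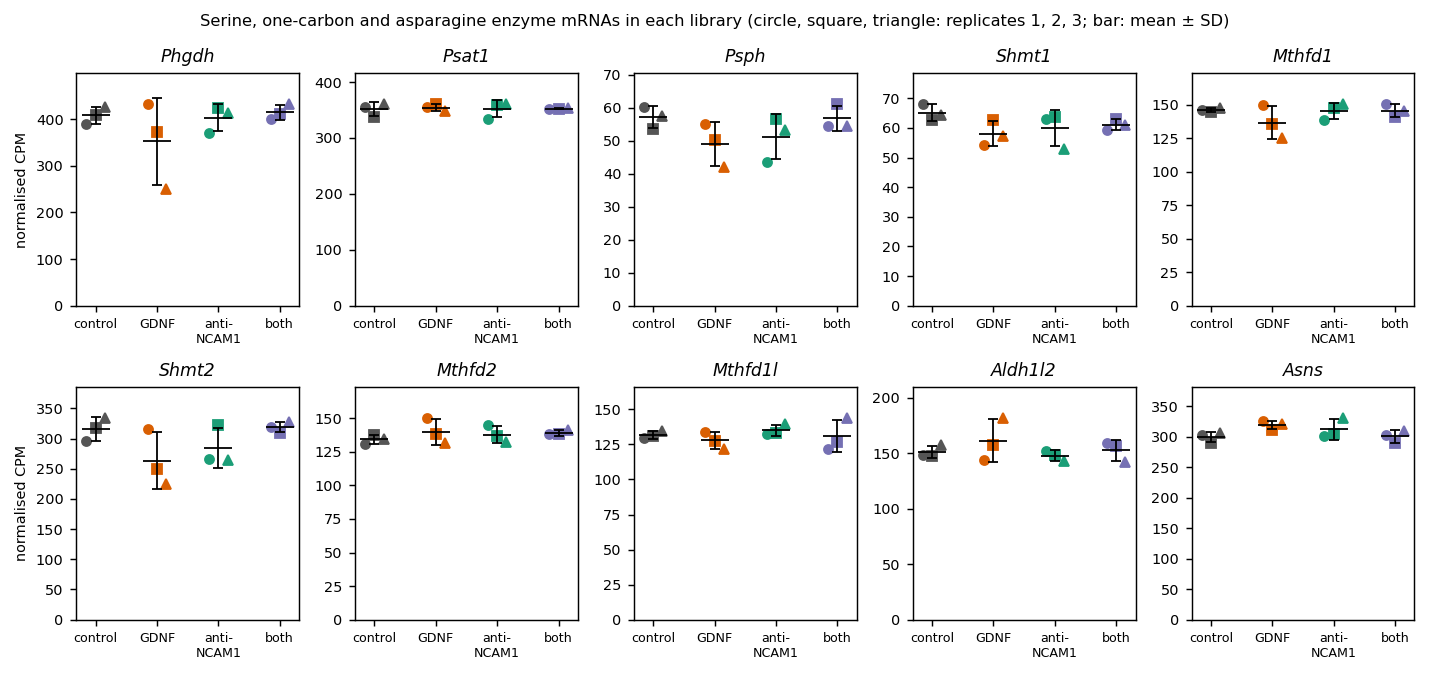
Normalised CPM of each enzyme mRNA (y axes from 0) in the 12 libraries, by group (both: GDNF plus anti-NCAM1); circles, squares and triangles are replicates 1, 2 and 3, and bars the mean ± SD. The GDNF points of Phgdh spread from 251.2 to 433.4 CPM, whereas all 12 points of Psat1 lie between 334.2 and 361.5.

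GDNF against control asks which transcripts differ when the growth factor is given, with no BSA listed, in glucose-poor medium. None of the 10 enzymes passed the test at an adjusted p of 0.05 with edgeR's quasi-likelihood test, where 0% of the 11332 tested genes passed. At an unadjusted p under 0.05, 1 of the 10 (Shmt2) and 2303 genes in all (20.3%) passed. Limma-voom called 0 of the 10 and 0 genes in all. DESeq2 called 0 of the 8 enzymes to which it gave an adjusted p, its filter having left out Psph and Shmt1, and 31 genes in all.

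Shmt2 averaged 263.56 ± 47.5 CPM with GDNF and 316.15 ± 19.6 in control (SD, n = 3 each), a log2 fold change of -0.26 (SE 0.107, edgeR adjusted p = 0.204). The log2 fold change was -0.22 for Psph (SE 0.113, edgeR adjusted p = 0.276) and -0.16 for Shmt1 (SE 0.0895, edgeR adjusted p = 0.30). The other 7 lay between -0.21 and 0.09, and the median of the 10 was -0.07 against 0.00 over all tested genes. Groups did not overlap for 2 of the 10, Shmt1 and Asns, and for 17.6% of all tested genes. In bulk cultures, fewer cells of a kind and less RNA per cell cannot be told apart.

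The values of Shmt2, Psph and Phgdh moved with single GDNF libraries, and that of Shmt1 less so. Without GDNF replicate 3 the log2 fold change of Shmt2 was -0.17 (edgeR adjusted p = 0.415), that of Psph -0.12 (0.664), that of Phgdh -0.03 (0.906) and that of Shmt1 -0.16 (0.507). Without GDNF replicate 1 edgeR called Shmt2 at -0.42 (adjusted p = 0.00459) and Phgdh at -0.39 (adjusted p = 0.0189), among 2696 genes called in all. It did not call Psph at -0.31 (adjusted p = 0.054) or Shmt1 at -0.12 (adjusted p = 0.376). Limma-voom with sample quality weights also called Shmt2, at -0.31 (adjusted p = 0.000658), in a fit with many calls over all genes, counted further below. With so many other genes called, neither fit singles out these enzymes.

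The antibody against control asks what the antibody does alone. None of the 10 enzymes passed with edgeR, where 0% of tested genes did, and 0 of the 10 and 599 genes in all had an unadjusted p under 0.05. DESeq2 and limma-voom called 0 of the 10 and 0 genes in all. The smallest p-values belonged to Shmt2, Psph and Shmt1, in a comparison that shares its control libraries with the one before. The log2 fold change was -0.15 for Shmt2 (SE 0.107), -0.16 for Psph (SE 0.113) and -0.12 for Shmt1 (SE 0.0897), each with an edgeR adjusted p of 0.874. Single antibody libraries moved these values: leaving out each library in turn gave -0.255 to -0.107 for Shmt2, -0.24 to -0.0617 for Psph and -0.165 to -0.0394 for Shmt1. The highest came without anti-NCAM1 replicate 3 for Shmt2 and Shmt1 and without replicate 1 for Psph, and the lowest without replicate 2 for all 3. The other 7 lay between -0.03 and 0.06. No enzyme had separate groups, against 16.9% of all tested genes.

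Adding the antibody to GDNF asks whether it alters cells that receive the growth factor. None of the 10 enzymes passed with edgeR, where 0% of tested genes did; 1 of the 10 (Shmt2) and 1582 genes in all had an unadjusted p under 0.05, and DESeq2 and limma-voom called 0 of the 10 and 0 genes in all. Shmt2 averaged 319.07 ± 8.83 CPM with both and 263.56 ± 47.5 with GDNF alone (SD, n = 3 each), a log2 fold change of 0.28 (SE 0.108, edgeR adjusted p = 0.332). The log2 fold change was 0.21 for Psph (SE 0.114, edgeR adjusted p = 0.391) and 0.23 for Phgdh (SE 0.132, edgeR adjusted p = 0.407), and the other 7 lay between -0.09 and 0.09. Groups did not overlap for 1 of the 10, Asns, and for 13.3% of all tested genes.

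Here too single GDNF libraries decided the values. Without GDNF replicate 1, edgeR called Shmt2 at 0.43 (adjusted p = 0.00765) and Phgdh at 0.41 (adjusted p = 0.0215), among 1986 genes called in all. These calls therefore do not single out the enzymes. Without GDNF replicate 3 the edgeR value was 0.18 for Shmt2 (adjusted p = 0.803) and 0.04 for Phgdh (adjusted p = 0.947).

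Adding GDNF to the antibody asks which transcripts differ with the factor, again with no BSA listed, where the antibody is present. None of the 10 passed with edgeR, where 0% of tested genes did, and 0 of the 10 and 284 genes in all had an unadjusted p under 0.05; DESeq2 and limma-voom called 0 of the 10 and 0 in all. The log2 fold change was 0.17 for Shmt2 (SE 0.108), 0.15 for Psph (SE 0.114) and -0.05 for Asns (SE 0.0656), each with an edgeR adjusted p of 0.9995. Leaving out each library in turn gave 0.116 to 0.268 for Shmt2, 0.048 to 0.23 for Psph and -0.0784 to -0.011 for Asns. No enzyme had separate groups, against 11.3% of all tested genes.

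Both agents together against control gave none of the 10 with edgeR, where 0% of tested genes passed. At an unadjusted p under 0.05 there were 0 of the 10 and 221 genes in all, and DESeq2 and limma-voom called 0 of the 10 and 0 in all. The log2 fold change was -0.09 for Shmt1 (SE 0.0899), 0.05 for Mthfd2 (SE 0.0709) and 0.01 for Aldh1l2 (SE 0.0842), each with an edgeR adjusted p of 0.9996. Groups did not overlap for 1 of the 10, Mthfd2, and for 13.3% of all tested genes.

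The interaction asks whether the difference between cultures with and without GDNF changes with the antibody. None of the 10 passed with edgeR, where 0% of tested genes did, while 2 of the 10 (Shmt2 and Psph) and 1900 genes in all had an unadjusted p under 0.05; DESeq2 and limma-voom called 0 of the 10 and 0 in all. Shmt2 had an interaction of 0.43 log2 units (SE 0.152, edgeR adjusted p = 0.242), Psph 0.37 (SE 0.161, edgeR adjusted p = 0.276) and Asns -0.15 (SE 0.0925, edgeR adjusted p = 0.401). A positive value means that the difference between cultures with and without GDNF was higher in the presence of the antibody. Without GDNF replicate 1 edgeR called Shmt2 at 0.58 (adjusted p = 0.00655) and Psph at 0.46 (adjusted p = 0.0484), among 1875 genes called in all. These calls therefore do not single out the enzymes. Without GDNF replicate 3 the interaction was 0.33 for Shmt2 (edgeR adjusted p = 0.144) and 0.27 for Psph (edgeR adjusted p = 0.346).

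A p that misses the threshold does not show that the enzymes were unchanged, so the 95% intervals from the fit of all 12 libraries are given. All 10 intervals lay within 0.5 log2 units (1.41-fold) of 0 in GDNF against control, the antibody against control, both against the antibody and both against control. Of the 10, 8 did so for both against GDNF and 7 for the interaction. The narrowest were those of Psat1, which ran from -0.12 to 0.15 for GDNF against control. These intervals do not exclude larger effects, since the values depend on single libraries. Without GDNF replicate 1, GDNF against control was -0.42 for Shmt2 (SE 0.0896) and -0.39 for Phgdh (SE 0.113). Without GDNF replicate 3 both differences were smaller than in the full fit.

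**Figure D3:**
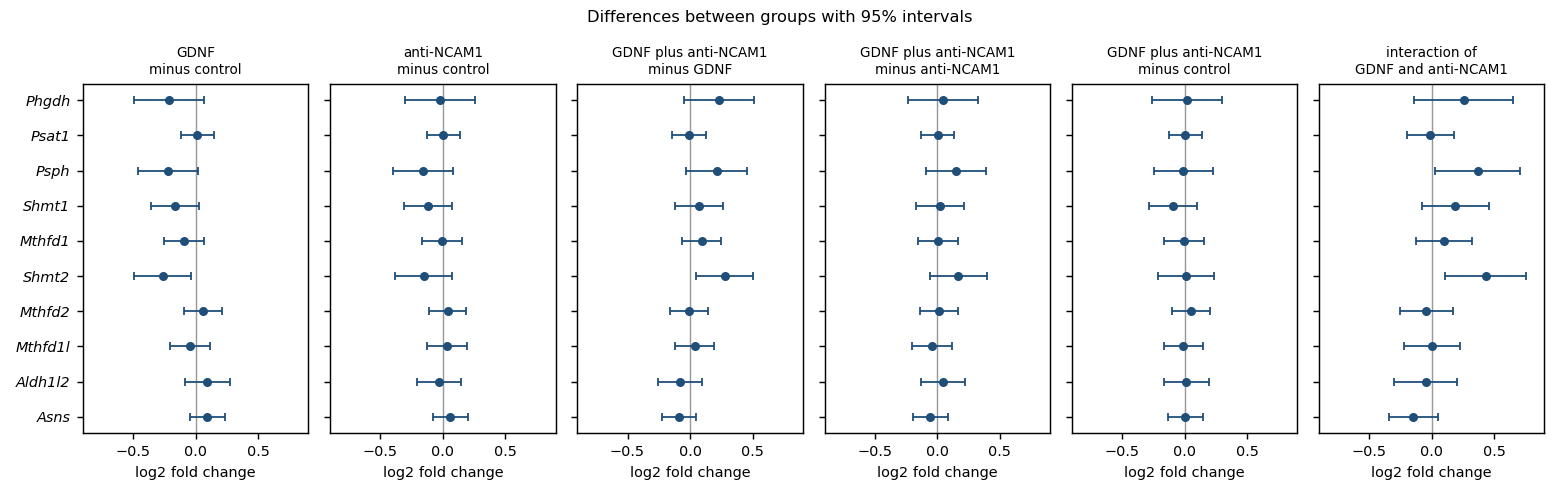
Log2 fold changes (points) with 95% intervals (bars) of the 10 enzymes in the 6 comparisons, from the edgeR fit of all 12 libraries. The intervals of Shmt2 exclude 0 in GDNF against control, both against GDNF and the interaction, and that of Psph in the interaction, all before adjustment for the number of genes tested.

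Over the 12 libraries the 3 enzymes that varied most, Phgdh, Shmt2 and Psph, had the most GC-rich mRNAs of the 10. Shmt2 and Phgdh had mRNAs of 57.4% and 57.2% GC, and Psph 53.7%, against a median of 50.0% over tested genes, whereas Asns and Aldh1l2 had the lowest of the 10, at 47.7% each. In GDNF replicate 3 the tested genes with 56 to 58% GC had a median of -0.34 log2 units relative to the control mean, with quartiles of -0.55 and -0.13. In the same library Shmt2 was at -0.49 and Phgdh at -0.70, so Shmt2 lay within those quartiles and Phgdh below them. In GDNF replicate 2 the median of that class was -0.19, with quartiles of -0.30 and -0.07, and Shmt2 lay below them at -0.34.

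**Figure D4:**
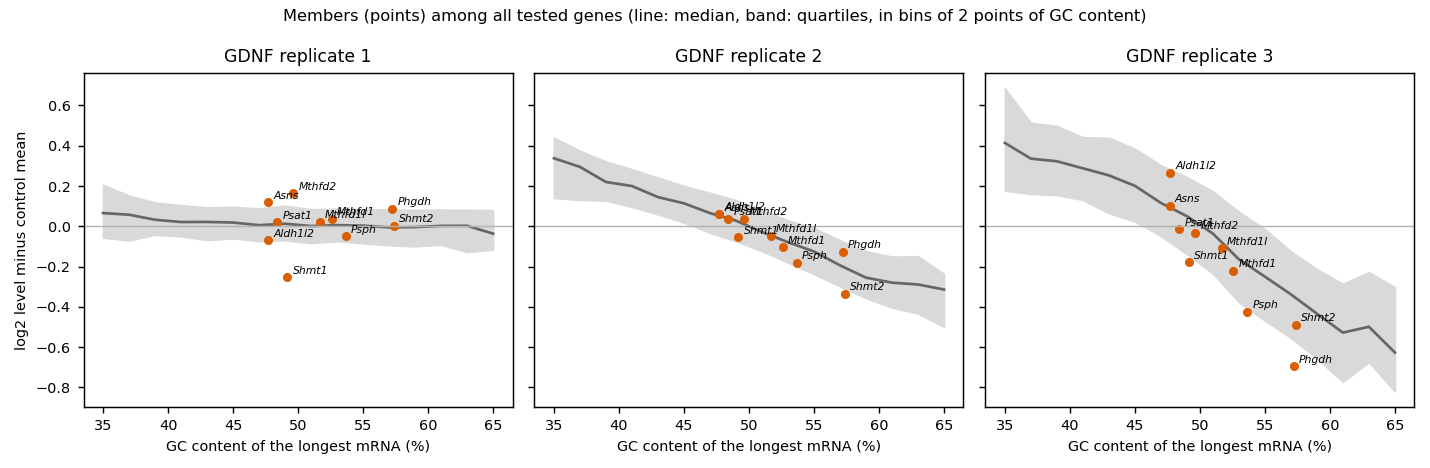
Log2 level of each enzyme minus its control mean (points) against the GC content of its longest mRNA in the 3 GDNF libraries, with the median (line) and quartiles (band) of all tested genes in bins of 2 points of GC. The line is flat in replicate 1 and falls in replicates 2 and 3, and Shmt2 and Phgdh sit at its GC-rich end.

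The 4 libraries with a falling GC slope were the 4 low libraries of Shmt2. Psph also did not overlap between them, at 42.0 to 53.1 CPM, and the other 8, at 53.6 to 61.2 CPM. Phgdh overlapped, at 251.2 to 413.9 CPM against 390.2 to 433.4, as did Psat1, at 334.2 to 361.5 against 336.9 to 360.9. The split was made on a measured property of the libraries and was not tested as a group difference. The share of all tested genes without overlap in this split is not given here, so nothing particular to these enzymes can be read from it.

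With each library's trend on GC content and mRNA length removed, the log2 fold change of Shmt2 for GDNF against control was -0.05 (SE 0.0612, edgeR adjusted p = 0.801), and those of Psph and Phgdh were -0.12 and -0.02. Shmt1 was at -0.17 and Aldh1l2 at 0.09, close to their values with the trend kept. The interaction of Shmt2 was then 0.10 (SE 0.0867, edgeR adjusted p = 0.719). Since 2 of the 3 GDNF libraries and 2 of the 3 antibody libraries carry the falling slope, and none of the control or combined libraries does, removing the trend also removes any effect that runs along GC content, and these cannot be told apart.

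**Figure D5:**
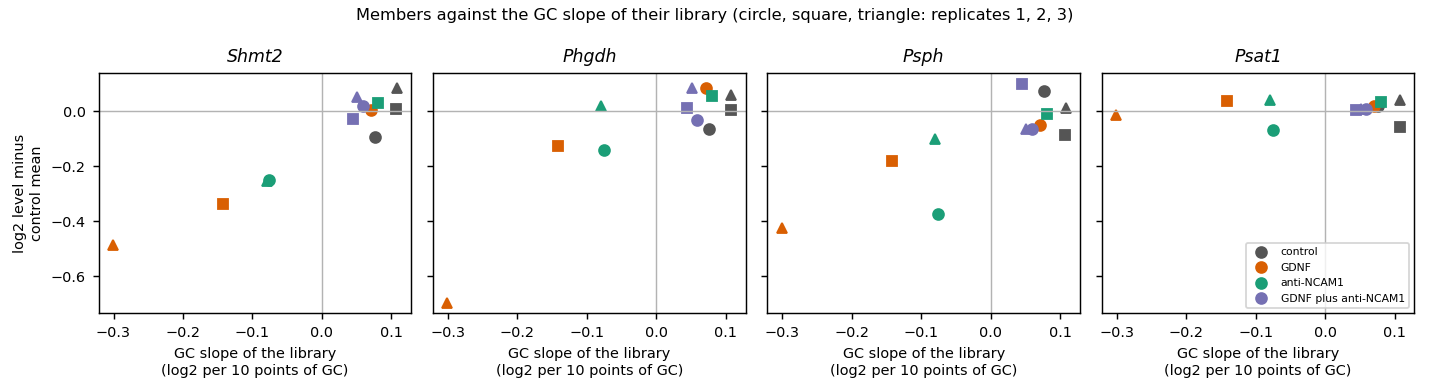
Log2 level minus the control mean (y) of Shmt2, Phgdh, Psph and Psat1 in each library against that library's GC slope (x). The slope is in log2 units per 10 points of GC, relative to gene means over all 12 libraries. Colours are groups and shapes replicates. Shmt2 is low in the 4 libraries with a slope below 0, and Psat1 is level across all 12.

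Ratios between enzymes of neighbouring steps, which cancel a library's overall scale and were tested after seeing the data, gave no call. With 3 libraries against 3 the exact permutation test cannot give a 2-sided p below 0.1, and that value was reached by 4 of 30 comparisons (adjusted p = 0.643 for each). Mthfd2 per Mthfd1 per length was 1.56, 1.58 and 1.63 in the GDNF libraries against 1.39, 1.48 and 1.42 in control. It was 1.42, 1.52 and 1.52 with both. With anti-NCAM1 it was 1.62, 1.44 and 1.37, so that this group overlapped with all the others.

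Psat1 per Psph per length was 4.84 ± 0.604 with GDNF and 4.60 ± 0.447 with anti-NCAM1 against 4.08 ± 0.145 in control (SD, n = 3 each). Both treated groups lay wholly above the control group. The group given both was at 4.13 ± 0.278. The highest values were 5.48 in GDNF replicate 3 and 5.08 in anti-NCAM1 replicate 1, each a library with a falling GC slope. The part of that slope was not tested, and Psph values are uncertain through the overlap with Cct6a. How often ratios of other genes separate in this way is not given here.

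Shmt2, Psph, Phgdh and Mthfd1 correlated with the level of the integrated stress response genes across the 12 libraries by Pearson's r. The share of all tested genes with such a correlation is not given here, so the calls do not single out these enzymes. The level was the mean log2 CPM of 17 tested genes of that response outside the 10 enzymes, among them Atf4, Ddit3 and Trib3, and ran from 5.56 in GDNF replicate 3 to 5.84 in control replicate 3. Over 12 libraries Pearson's r was 0.872 for Shmt2 (permutation p = 0.00038, adjusted over the 10 to 0.0027; Spearman's rho 0.65, permutation p = 0.0265, adjusted 0.132). It was 0.825 for Psph (permutation p = 0.00054, adjusted 0.0027; rho 0.727, permutation p = 0.00943, adjusted 0.0943).

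For Phgdh r was 0.896 (permutation p = 0.00327, adjusted 0.0109; rho 0.566, permutation p = 0.0582, adjusted 0.194) and for Mthfd1 0.818 (permutation p = 0.00664, adjusted 0.0166; rho 0.448, permutation p = 0.147, adjusted 0.368). Asns, a well known target of that response, had r of -0.436 (permutation p = 0.164, adjusted 0.273; rho -0.301, permutation p = 0.343, adjusted 0.572). For Aldh1l2 r was also negative, at -0.667 (permutation p = 0.0453, adjusted 0.0906; rho -0.238, permutation p = 0.457, adjusted 0.625). No rank correlation passed the adjustment. Without the 2 libraries farthest from the median, GDNF replicate 3 and control replicate 3, r was 0.745 for Shmt2, 0.682 for Psph, 0.51 for Phgdh and 0.431 for Mthfd1. Without GDNF replicate 3 alone none of the 4 had an adjusted permutation p under 0.05 (r = 0.781 and adjusted p = 0.0522 for Shmt2, 0.688 and 0.0577 for Psph, 0.561 and 0.249 for Phgdh, 0.454 and 0.402 for Mthfd1). The calls thus rested on that library, while the coefficients of Shmt2 and Psph moved less than those of Phgdh and Mthfd1. As a description over the same 12 libraries, r with the GC slope was 0.962 for Shmt2, 0.86 for Phgdh, 0.828 for Mthfd1, 0.819 for Psph and -0.65 for Aldh1l2, and the part of that slope in the relation was not tested.

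The other genes of the pathway gave no call in any of the 6 comparisons. In GDNF against control, 0 of 13 tested genes of the folate cycle passed, with 6 higher and 7 lower and a median log2 fold change of -0.04. Slc19a1, the reduced folate carrier, had -0.40 (SE 0.115, edgeR adjusted p = 0.165). Of 12 tested genes of serine and glycine transport and glycine cleavage, 0 passed, with 5 higher, 7 lower and a median of -0.03. The glycine transporter Slc6a9 had -0.32 (SE 0.0916, edgeR adjusted p = 0.165) and Dld, a subunit of the glycine cleavage system and of other dehydrogenases, 0.23 (SE 0.0901, edgeR adjusted p = 0.192).

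Of 8 tested genes of methionine metabolism 0 passed, with 5 higher, 3 lower and a median of 0.03. Amd1, which makes the propylamine donor for polyamines, had 0.21 (SE 0.0755, edgeR adjusted p = 0.178) and Mat2a, which makes S-adenosylmethionine, 0.15 (SE 0.0779, edgeR adjusted p = 0.286). Of 13 tested genes of asparagine, glutamine, aspartate and proline metabolism 0 passed, with 4 higher, 9 lower and a median of -0.04. Aldh18a1, an enzyme of proline synthesis, had -0.28 (SE 0.0841, edgeR adjusted p = 0.165).

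Of the 17 tested stress response genes 0 passed, with 5 higher, 12 lower and a median of -0.12. Sesn2, a leucine sensor that restrains mTORC1, had -0.32 (SE 0.123, edgeR adjusted p = 0.194) and Nupr1, a stress-induced chromatin protein, 0.29 (SE 0.116, edgeR adjusted p = 0.20). Of 8 tested genes of the Myc network 0 passed, with 3 higher, 5 lower and a median of -0.05. Mnt and Mxd4, partners of Max that repress transcription, had -0.31 (SE 0.115, edgeR adjusted p = 0.186) and -0.29 (SE 0.112, edgeR adjusted p = 0.192). Medians of these 6 lists in the antibody against control ran from -0.10 to 0.03, with 0 genes called, and all tested genes had a median of 0.00 in both comparisons.

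In both against GDNF the medians of these lists ran from -0.05 to 0.09, in both against the antibody from -0.02 to 0.06, in both against control from -0.06 to 0.05 and in the interaction from -0.09 to 0.16, again with 0 genes called in each.

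The genes whose pattern over the 12 libraries was most like the mean of the 10 enzymes were H2afx, Fkbp10, Mogs, Gsn and Sec61a1, with Pearson's r of 0.99, 0.984, 0.982, 0.981 and 0.98. These correlations describe the 12 libraries, which share the GC trend above. Ncam1 and Gdnf, the genes of the antibody's target and of the added factor, averaged 8.86 and 12.1 CPM.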

How the data were processed

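Values in the deposited table are whole-number counts for each gene, with no scaling. Per the submitters' processing notes, kallisto 0.46.2, FastQC and MultiQC were used with builds GRCm39 and mm10; their roles, and how strand and shared reads were counted, are not given in the sources used here. Symbols were matched to 52081 of 55414 IDs. Coordinates, lengths, GC content and overlaps come from GENCODE M21 (GRCm38) and promoter windows from RefSeq (GRCm38.p6).

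Genes were filtered with filterByExpr (minimum count 10, total 15), which left 11332, scaled by TMM, and fitted over 12 libraries in 4 groups with edgeR 4.0.16 (quasi-likelihood F test, 2-sided, R 4.3.3). P-values were adjusted by Benjamini-Hochberg over all tested genes in each of 6 comparisons and called at 0.05. A total of 3 counts corresponds to 0.371 to 0.534 CPM, and covers counting error only. DESeq2 1.42.0, limma 3.58.1 (voom, with and without quality weights), other scalings and filters, the compared groups alone, a replicate block, removal of the GC and length trend (lowess span 0.3) and leaving out each library were the alternatives. Correlations used log2 CPM (pseudocount 2) and 100000 permutations. The fit was tested on simulated data for GDNF against control. It recovered 67% of 100 changes of 0.5 log2 units and 90% of 100 changes of 1, with 5 false calls. Smaller changes, such as those discussed for the enzymes, were not simulated.

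Named in each comparison were enzymes with an unadjusted p under 0.05 or the 3 with the smallest p, and the 2 genes of smallest p in each pathway list, some of which are not reported here. Enzymes and lists were chosen with earlier results of these data known.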

Additional observations from a re-analysis of the deposited data

How the results depend on the processing

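Counts of called enzymes were 0 in the 6 comparisons under limma-voom, DESeq2, scaling by upper quartile or by the size factors of DESeq2, 1 CPM in 3 libraries, the compared groups alone and both fits with the GC and length trend removed. With sample quality weights (0.137 for GDNF replicate 3, 0.38 for GDNF replicate 1, 2.97 for GDNF replicate 2) limma-voom called 1 enzyme in GDNF against control, 1 in both against GDNF and 2 in the interaction; with no filter edgeR called 1 in the interaction, Shmt2. Over all genes the quality weights gave 2614 calls in GDNF against control, 277 in the antibody against control, 1462 in both against GDNF, 7 in both against the antibody and 2425 in the interaction, against 0 in the main fit. No filter gave 736, 8, 348, 4, 4 and 403 in the order of the report. DESeq2 gave 31 in GDNF against control, adjusted over 1885 genes. The compared groups alone gave 33 for the antibody against control, 5 for both against the antibody and 25 for both against control. With the trend removed and GDNF replicate 3 left out there were 1 call in the antibody against control, 1 in both against GDNF and 13 in the interaction, and the log2 fold change of Phgdh in both against GDNF turned to -0.0818. The cause was not tested. DESeq2 gave no adjusted p to Psph and Shmt1 in GDNF against control, so its count there covers 8 enzymes.

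Leaving out each library in turn gave 0 to 2 called enzymes in GDNF against control, both against GDNF and the interaction, with the 2 in each without GDNF replicate 1, and 0 in the other 3 comparisons. Over all genes the ranges were 0 to 2696, 0 to 8, 0 to 1986, 0 to 0, 0 to 0 and 0 to 1875, with the upper end without GDNF replicate 1, except for the 8, without GDNF replicate 3. Aldh1l2 in both against control ran from -0.0194 to 0.0623. With the replicate block, edgeR called 0 enzymes in every comparison, and Shmt2 in GDNF against control was -0.269. Same-numbered libraries deviated together little (r from -0.234 to 0.122 over 18 pairs, 1 over 0.1), and 6 of 12 libraries correlated best with their own number. With 3 libraries a group this check cannot decide whether the numbers pair the cultures. Without GDNF replicate 3 the correlation with the stress response genes was 0.781 for Shmt2, 0.688 for Psph, 0.561 for Phgdh and 0.454 for Mthfd1, all past the threshold before and none after, and turned to -0.0403 for Mthfd2, -0.147 for Mthfd1l and 0.0478 for Aldh1l2. With 3 cultures a group, depth limits Psph and Shmt1 most, at 281 to 537 counts per library.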
